A study of Mus musculus with 20 samples.

Results

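The 10 genes described here are the core clock and PAR bZIP genes Arntl, Clock, Per2, Per3, Cry1, Cry2, Nr1d1, Dbp, Tef and Hlf, taken by symbol from the 24421 genes counted in every library. RNA-seq was performed on the neocortex and the hippocampus of 3-month-old mice, and each genotype had 5 libraries from each region (20 in total). The cTKO mice were homozygous for floxed App, Aplp1 and Aplp2 and carried the Camk2a-Cre transgene, which removes the 3 genes after birth in excitatory neurons of the forebrain and leaves them intact in other cells. The controls, labelled wild type, were littermates with the same floxed alleles and no Cre, and both genotypes were of a hybrid background that includes C57BL/6J, and mice of both sexes were used. The tissue was bulk, so that fewer cells of a type and less RNA per cell cannot be told apart in any value below. The sources used here do not give the time of day at which tissue was taken.

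The mammalian clock is a transcriptional feedback loop. Arntl (Bmal1) and Clock form a dimer that binds E-box elements and activates the Per and Cry genes, whose proteins accumulate and block the dimer. In a second loop Nr1d1 (Rev-erb alpha) is activated by the same dimer and represses Arntl through RRE elements. Dbp, Tef and Hlf are proline and acidic amino acid-rich (PAR) bZIP factors that bind D-box elements. Dbp is itself a direct target of the dimer, and its mRNA, like that of Nr1d1 and Per3, is known to swing over the day in many tissues, while that of Arntl peaks at the opposite phase.

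Total counts per library ranged from 12169474 to 25331954, and the lowest count of any of the 10 genes in a library was 183, for Cry1 in a control hippocampus library. The targeted genes App, Aplp1 and Aplp2 did not overlap between genotypes in either region and were lower in the cTKO libraries (exact permutation test, p = 0.00794 for each gene and region, the smallest p that 5 against 5 libraries allow). The hippocampal markers Prox1, Zbtb20, Dsp, C1ql2 and Lct summed to between 221 and 394 CPM (read counts of a gene relative to the scaled library size) in hippocampus libraries and to at most 31.5 CPM in neocortex libraries. Markers of embryonic tissue, a list of 7 genes led by embryonic globins, summed to 609 CPM in cTKO neocortex library 5 and to 384 CPM in cTKO hippocampus library 4, and to at most 3.08 CPM in each of the other libraries. Choroid plexus markers reached 2710 CPM in control hippocampus library 3, against at most 492 CPM in the other libraries of its group. In cTKO hippocampus library 5 they reached 599 CPM, against at most 188 CPM in the other libraries of that group. Results that move when one of these libraries is left out are given both ways.

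The elements named above were searched, by their letters on both strands, in the promoter windows of RefSeq (GRCm38.p6, 250 bases before to 50 after a transcript start), of which 13 belonged to 9 of the 10 genes. The windows of Per3, Nr1d1 and Dbp are shown because these genes varied together in the neocortex, and those of Tef and Hlf because they were the pair with the highest correlation in the hippocampus. That of Cry1 is shown as a Cry window with an E-box. Each is printed 5′ to 3′ on the strand of its gene, only up to the first annotated exon base, and capitals mark a D-box (TTATGTAA or TTACGTAA), an E-box (CACGTG) or a CRE (TGACGTCA, the element bound by CREB).
Per3, chr4:151044666-151044915, minus strand: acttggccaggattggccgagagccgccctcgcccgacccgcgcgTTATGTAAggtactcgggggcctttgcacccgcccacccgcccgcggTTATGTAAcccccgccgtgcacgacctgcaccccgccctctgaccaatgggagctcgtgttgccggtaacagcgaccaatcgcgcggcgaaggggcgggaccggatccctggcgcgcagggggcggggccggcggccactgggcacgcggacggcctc
Nr1d1, chr11:98775378-98775627, minus strand: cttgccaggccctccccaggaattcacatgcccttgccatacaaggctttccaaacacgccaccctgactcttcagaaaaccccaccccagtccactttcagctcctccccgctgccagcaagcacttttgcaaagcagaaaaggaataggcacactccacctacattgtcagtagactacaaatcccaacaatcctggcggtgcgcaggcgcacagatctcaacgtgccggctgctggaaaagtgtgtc
Dbp, chr7:45704997-45705087, plus strand: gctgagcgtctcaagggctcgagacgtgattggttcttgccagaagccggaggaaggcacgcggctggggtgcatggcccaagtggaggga
Tef, chr15:81811164-81811413, plus strand, before the start of a transcript that begins inside the gene: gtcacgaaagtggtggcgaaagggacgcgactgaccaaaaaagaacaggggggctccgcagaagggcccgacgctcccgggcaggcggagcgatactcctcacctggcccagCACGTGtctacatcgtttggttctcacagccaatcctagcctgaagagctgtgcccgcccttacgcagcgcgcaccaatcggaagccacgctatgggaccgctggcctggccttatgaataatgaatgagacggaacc
Hlf, chr11:90390918-90391167, minus strand: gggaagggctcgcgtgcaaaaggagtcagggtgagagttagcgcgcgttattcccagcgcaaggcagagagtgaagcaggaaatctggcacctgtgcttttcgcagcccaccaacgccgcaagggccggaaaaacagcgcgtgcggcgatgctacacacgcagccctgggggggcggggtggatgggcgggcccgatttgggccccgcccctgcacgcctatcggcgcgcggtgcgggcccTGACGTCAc
Cry1, chr10:85185065-85185304, minus strand: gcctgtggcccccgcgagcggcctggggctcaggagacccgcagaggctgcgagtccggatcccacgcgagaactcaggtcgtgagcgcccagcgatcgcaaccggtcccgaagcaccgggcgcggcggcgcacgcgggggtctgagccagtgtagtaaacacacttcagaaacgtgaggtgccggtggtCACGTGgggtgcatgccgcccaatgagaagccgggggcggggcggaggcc

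The Per3 window held a D-box at 2 places, starting at positions -205 and -158 from the transcript start, an element found in 1.06% of the 32851 windows of all genes. The E-box, present in 7.15% of all windows, started at -60 in Cry1 and at -138 in the Tef window shown, and at -127 in the other Tef window. Hlf held a CRE at -9, which 1.79% of all windows have. One of the Arntl windows held an RRE (TAGGTCA, searched together with TGGGTCA and present in 6.45% of windows) at 30 bases after the start. None of the 4 elements was in the windows of Nr1d1, Dbp, Clock and Cry2. These are matches of letters in short windows, and they do not show binding.

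The order of the 10 genes by level was set by CPM per kilobase of annotated exon. In the control neocortex Nr1d1 had the highest level at 79.9 ± 8.86 CPM per kb (mean ± SD, n = 5), followed by Hlf at 53.5 ± 2.51, Tef at 41.8 ± 2.82, Dbp at 29.6 ± 2.85 and Cry2 at 25.6 ± 2.51 CPM per kb. Per2 at 12.9 ± 2.29, Clock at 9.94 ± 0.465, Per3 at 6.42 ± 0.913, Arntl at 5.46 ± 0.595 and Cry1 at 4.97 ± 0.892 CPM per kb made up the lower part. Of these neighbours, Dbp and Cry2, Per2 and Clock, Per3 and Arntl, and Arntl and Cry1 overlapped between libraries. In the control hippocampus Nr1d1 (47.5 ± 3.53) and Tef (46.6 ± 4.98 CPM per kb) overlapped at the top, Hlf came next at 33.4 ± 4.47, and Cry1 was last at 3.05 ± 0.483 CPM per kb. Reads from a gene and from a gene on the opposite strand cannot be told apart unless the counting used the strand, which the sources used here do not say. By the GENCODE annotation of GRCm38, Nr1d1 (chr11:98767932-98775333) shares 263 exonic bases with Thra, Dbp (chr7:45705088-45710203) shares 539 with Sphk2, and Cry2 (chr2:92403646-92434043) shares 295 with D930015M05Rik.

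**Figure D1:**
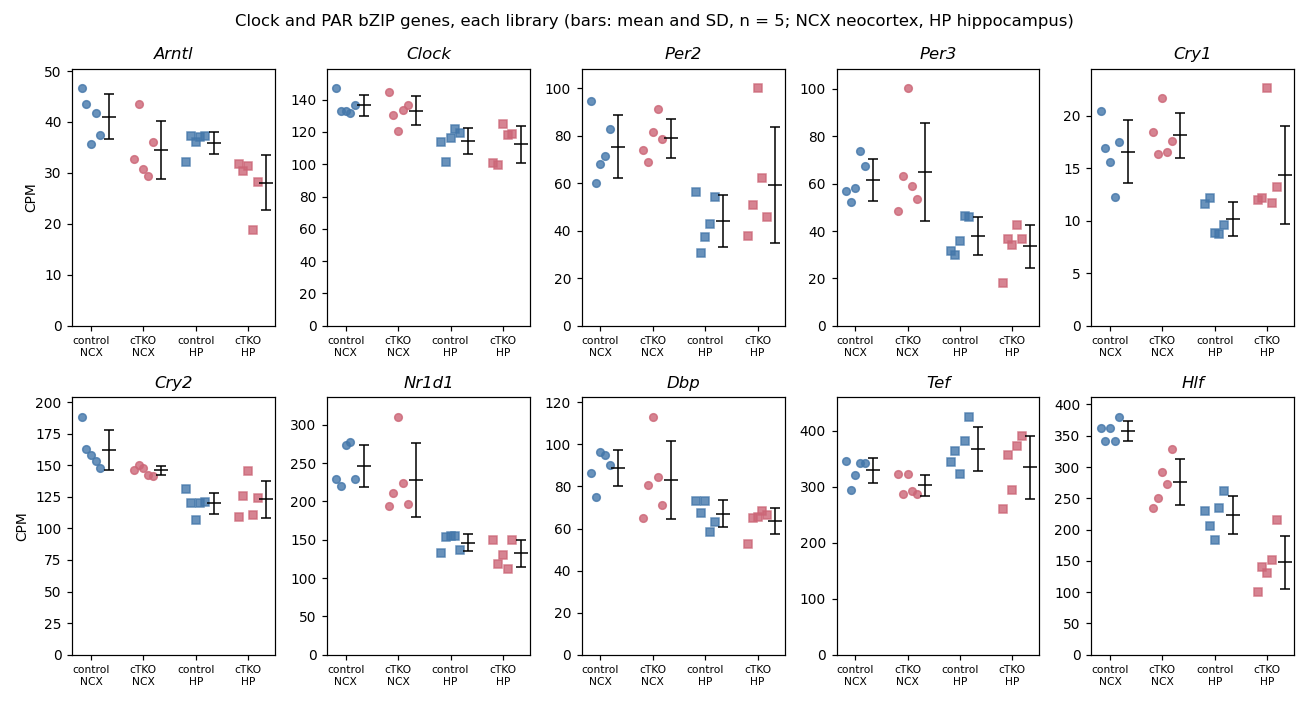
CPM of each gene (y axis, from 0) in each of the 20 libraries, by genotype and region (x axis); circles are neocortex and squares hippocampus, blue control and red cTKO, and bars are the mean and SD of 5 libraries. Hlf in the cTKO neocortex lay between 235 and 328 CPM, below all control neocortex libraries, and cTKO neocortex library 3 stood highest for Per3, Nr1d1 and Dbp.

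Whether the loss of the APP family changed the clock genes was tested in each region with edgeR's quasi-likelihood test, with p values adjusted over all genes tested (FDR). None of the 10 genes passed an FDR of 0.05 in either region, where 0.188% of all genes in the neocortex and 0.489% in the hippocampus did. At an unadjusted p under 0.05, 3 of the 10 passed in the neocortex (Arntl, Cry2 and Hlf), beside 10.4% of all genes, and 3 of the 10 in the hippocampus (Arntl, Cry1 and Hlf), beside 12% of all genes. The median log2 fold change of the 10 genes, cTKO against control, was -0.10 for the neocortex and -0.11 for the hippocampus, against 0.0090 and 0.0049 over all genes, and 7 of the 10 estimates were below 0 in each region. Both other edgeR tests (likelihood ratio and exact) and the Wald test of DESeq2 called 1 of the 10 genes in each region, which was Hlf. Of all genes these tests called 1.21%, 1.18% and 1.6% in the neocortex, and 1.89%, 1.88% and 2.42% in the hippocampus. By exact permutation of each gene alone, p was under 0.05 before adjustment for 2 neocortical and 3 hippocampal genes of the 10, beside 9.51% and 11% of all genes.

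Hlf had the smallest p of the 10 genes in both regions. In the neocortex its levels were 363, 341, 362, 341 and 381 CPM in the controls and 235, 250.2, 293, 272 and 328 CPM in cTKO mice. No cTKO library reached the lowest control, and the exact permutation test gave p = 0.00794. The log2 fold change was -0.37 (SE 0.085, 95% interval -0.55 to -0.18, FDR = 0.114 by the quasi-likelihood test). The FDR was 0.00997 by the likelihood ratio test, 0.0105 by edgeR's exact test and 0.00601 by DESeq2, and it ranged from 0.00601 to 0.401 over the alternatives that kept all libraries. Left out alone, cTKO neocortex library 5, which holds the embryonic markers and had the highest Hlf level of its group, gave a log2 fold change of -0.45 and an FDR of 0.00846, and it was the one neocortex library whose removal brought the FDR under 0.05.

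In the hippocampus Hlf levels were 229, 206, 183, 235 and 262 CPM in the controls and 101, 140.4, 131, 151 and 215 CPM in cTKO mice. Here 4 of the 5 cTKO libraries lay below every control, and cTKO hippocampus library 5 lay among them (exact permutation test, p = 0.0238). The log2 fold change was -0.60 (SE 0.165, 95% interval -0.95 to -0.24, FDR = 0.163 by the quasi-likelihood test, and 0.0301, 0.0306 and 0.0195 by the likelihood ratio, exact and DESeq2 tests). One fit of all 20 libraries gave an FDR of 0.0353 for this contrast, where 1.33% of all genes passed, and the FDR over the alternatives with all libraries ranged from 0.0195 to 0.240. Without cTKO hippocampus library 5, which had the highest choroid plexus sum of its group, the log2 fold change was -0.77 and the FDR 0.0151. Without cTKO hippocampus library 4, which holds the embryonic markers, they were -0.61 and 0.194. No difference between the regions in the fold change of Hlf was detectable (interaction -0.22 on the log2 scale, 95% interval -0.63 to 0.19).

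The excitatory neuron markers, the cells in which Cre is active, summed to between 7394 and 8162 CPM in the control neocortex and to between 6443 and 7805 CPM in the cTKO neocortex. In the hippocampus the same 5 markers summed to between 9277 and 10575 CPM in controls and to between 8262 and 10145 CPM in cTKO mice. The ranges of the genotypes overlapped, in the neocortex only through cTKO neocortex library 3, as the next cTKO library was at 7202 CPM. The median sum was 7954 CPM in the control and 6655 CPM in the cTKO neocortex, and 10402 and 9442 CPM in the hippocampus. The median log2 fold change of the 5 markers taken singly, cTKO against control, came to 0.044 for neocortex and 0.071 for hippocampus. None of the 5 markers passed an FDR of 0.05 in either region, and their part in the Hlf values was not tested.

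The other PAR bZIP genes did not pass the test. Dbp levels in the neocortex were 86.4, 75.2, 96.4, 95.1 and 90.1 CPM in the controls and 65.0, 80.9, 113, 84.5 and 71.2 CPM in cTKO mice. The cTKO libraries thus spread to both sides of the controls (log2 fold change -0.090, 95% interval -0.36 to 0.18, FDR = 0.859). In the hippocampus Dbp was between 58.3 and 73.3 CPM in controls and between 52.6 and 68.3 CPM in cTKO mice (log2 fold change -0.077, 95% interval -0.26 to 0.11, FDR = 0.796). Tef was at 329 ± 22.2 CPM in the control and 302 ± 18.7 CPM in the cTKO neocortex (SD, n = 5), with a log2 fold change of -0.12 (95% interval -0.25 to 0.016, FDR = 0.542). Its hippocampal values were 367 ± 39.2 and 334 ± 55.8 CPM, with a log2 fold change of -0.13 (95% interval -0.38 to 0.11, FDR = 0.717).

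Of the activators, Arntl was lower in cTKO estimates of both regions and Clock was nearly equal. In the hippocampus Arntl was at 32.2, 37.3, 36.0, 37.0 and 37.2 CPM in the controls and at 31.7, 30.4, 31.4, 18.7 and 28.2 CPM in cTKO mice. The genotypes did not overlap, although control library 1 and cTKO library 1 came close (exact permutation test, p = 0.00794). The log2 fold change was -0.35 (SE 0.123, 95% interval -0.62 to -0.088, FDR = 0.271), and it was -0.24 with an FDR of 0.177 without cTKO hippocampus library 4, which was the lowest and holds the embryonic markers. In the neocortex Arntl averaged 41.0 ± 4.47 CPM (SD) in the 5 control libraries and 34.5 ± 5.67 CPM in the 5 cTKO libraries, which overlapped (log2 fold change -0.24, SE 0.110, FDR = 0.457; exact permutation test, p = 0.0952). Clock had log2 fold changes of -0.028 in the neocortex (95% interval -0.16 to 0.10) and -0.026 in the hippocampus (95% interval -0.20 to 0.14), the narrowest intervals of the 10 genes in each region.

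Genotypes thus did not overlap for 1 of the 10 genes in the neocortex, Hlf, where 2.36% of all genes showed no overlap. In the hippocampus this was also 1 of 10, Arntl, beside 3.13% of all genes.

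The repressors Per2, Per3, Cry1 and Cry2 did not pass the test in either region, and their estimates were not all of one sign. Cry1 in the hippocampus was at 11.6, 12.2, 8.85, 8.70 and 9.57 CPM in the controls and between 11.7 and 22.7 CPM in cTKO mice, where the second highest library was at 13.3 CPM. The high value belonged to cTKO hippocampus library 3, in which Per2, Cry2 and Clock were also the highest of their group. The log2 fold change of Cry1 was 0.50 (SE 0.187, 95% interval 0.094 to 0.90, FDR = 0.313; exact permutation test, p = 0.0317) and fell to 0.27 (FDR = 0.408) without that library. Per2 in the hippocampus was between 30.7 and 56.5 CPM in controls and at 38.0, 50.7, 100.3, 62.3 and 45.7 CPM in cTKO mice. Its log2 fold change of 0.43 (95% interval -0.098 to 0.95, FDR = 0.528) was 0.15 (FDR = 0.803) without the same library.

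In the neocortex Cry2 was at 189, 162, 158, 153 and 148 CPM in the controls and at 147, 150.5, 148, 143 and 142 CPM in cTKO mice. The cTKO libraries were close to each other and 3 of them lay below every control (log2 fold change -0.14, SE 0.063, 95% interval -0.28 to -0.0079, FDR = 0.441; exact permutation test, p = 0.0238). Without control neocortex library 1, which had the highest Cry2 level, the log2 fold change was -0.090 (FDR = 0.624). The other estimates of the repressors in the neocortex were 0.069 for Per2, 0.080 for Per3 and 0.13 for Cry1, and in the hippocampus -0.18 for Per3 and 0.039 for Cry2, with FDR values of at least 0.769.

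Nr1d1, the repressor of Arntl, did not pass the test, with estimates of -0.11 on the log2 scale for the neocortex (95% interval -0.36 to 0.15, FDR = 0.818) and -0.15 for the hippocampus (95% interval -0.34 to 0.048, FDR = 0.571). Its neocortex levels were 229, 220, 273, 277 and 229 CPM in the control libraries and 195, 211, 311, 224 and 197 CPM in the cTKO libraries, so that 3 cTKO libraries lay below and 1 above all controls. None of the 10 genes had a genotype effect that differed between regions at an FDR of 0.05, where 0.0564% of all genes did, and none had an unadjusted p under 0.05 in that test by edgeR's quasi-likelihood method. The smallest unadjusted p was 0.0913, for Cry2, with an interaction of 0.19 on the log2 scale (95% interval -0.033 to 0.42).

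**Figure D2:**
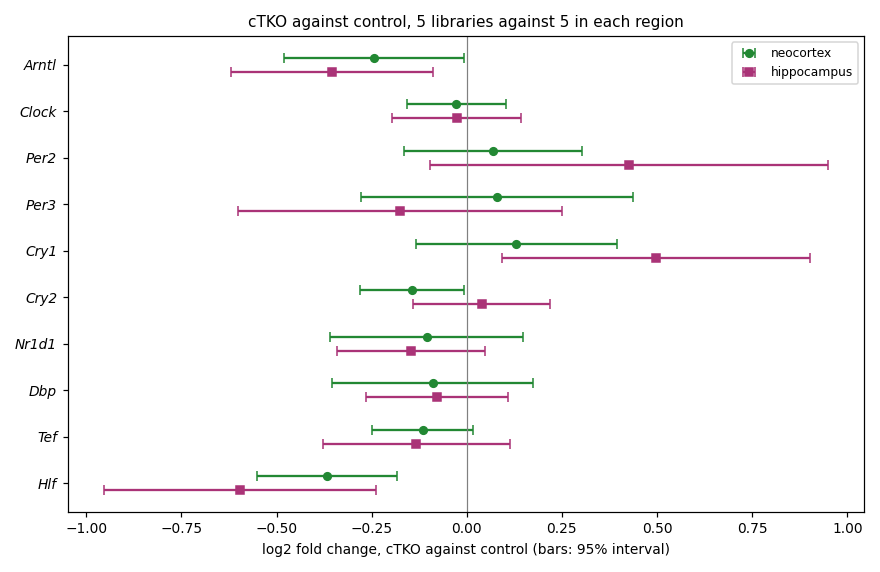
Log2 fold change of each gene, cTKO against control (x axis), in the neocortex (green circles) and in the hippocampus (purple squares), with 95% intervals from edgeR's quasi-likelihood fit of 5 against 5 libraries. Hlf had the lowest estimate in both regions, -0.37 and -0.60, and the highest were 0.43 for Per2 and 0.50 for Cry1, both in the hippocampus.

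A list of 18 other clock genes was tested in the same fits. In the neocortex 0 passed an FDR of 0.05 by edgeR's quasi-likelihood, likelihood ratio and exact tests and by DESeq2, and 2 had an unadjusted p under 0.05 by the quasi-likelihood test, beside 10.4% of all genes. These were Rora, a nuclear receptor that activates Arntl at the RRE (log2 fold change -0.24, SE 0.076, FDR = 0.264), and Bhlhe40, a repressor of the Arntl and Clock dimer (log2 fold change -0.32, SE 0.109, FDR = 0.308). In the hippocampus 1 of the 18 passed, beside 0.489% of all genes. This was Bhlhe41 (Dec2), the paralog of Bhlhe40. Its levels were 54.5, 48.6, 53.2, 55.1 and 60.9 CPM in the controls and 104, 81.4, 123, 87.3 and 75.0 CPM in cTKO mice. The genotypes were well apart, and Bhlhe41 rose by 72.8% (log2 fold change 0.79, SE 0.121, 95% interval 0.53 to 1.05, FDR = 0.0143; exact permutation test, p = 0.00794). The FDR ranged from 3.14e-07 to 0.0364 over the alternatives with all libraries, and it was 0.0503, 0.0576 and 0.0626 without control hippocampus library 1, 2 or 4. In the neocortex Bhlhe41 averaged 56.7 ± 4.39 CPM (SD) in the control libraries and 57.3 ± 8.55 CPM in the cTKO libraries (log2 fold change 0.021, 95% interval -0.19 to 0.23). The difference between regions was 0.78 on the log2 scale (95% interval 0.44 to 1.12). It missed the threshold by the quasi-likelihood test, which took the 20 libraries as independent (FDR = 0.0929). The FDR was 0.00443 by the likelihood ratio test and 0.00500 by DESeq2, which called 0.183% and 0.184% of all genes. With the library number within each genotype as a block, the quasi-likelihood test gave 0.77 and an FDR of 0.00642. Without a block, leaving out cTKO hippocampus library 5 or cTKO neocortex library 3 gave an FDR of 0.0288 or 0.0361. An annotated transcript on the opposite strand, Gm43909, covers 1280 exonic bases of Bhlhe41.

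The other genes of that list that are named here gave no call for genotype. Npas2, which can take the place of Clock in the dimer, was between 38.0 and 48.3 CPM in the control hippocampus and at 27.6, 29.3, 35.6, 20.4 and 42.3 CPM in cTKO mice, where 4 of 5 libraries lay below every control (log2 fold change -0.46, SE 0.155, FDR = 0.254; exact permutation test, p = 0.0317). The lowest of them was cTKO hippocampus library 4, as for Arntl. In the neocortex the log2 fold change of Npas2 was -0.099 (FDR = 0.790). Rora in the hippocampus had a log2 fold change of -0.22 (FDR = 0.349). The neocortical and hippocampal log2 fold changes were -0.24 and -0.16 for Per1 (FDR = 0.563 and 0.625) and -0.063 and -0.12 for Nr1d2, or Rev-erb beta (FDR = 0.796 and 0.623). Those of Ciart, a repressor of the dimer, were -0.0046 and 0.054 (FDR = 0.995 and 0.935).

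The same genes were then compared between the hippocampus and the neocortex within each genotype. These fits took the libraries as independent, although the authors describe taking both regions from the same mice. Fits with the library number as a block are therefore also given. RNA of the 2 regions was extracted with different kits, so that region and kit cannot be told apart. In control mice 9 of the 10 genes passed an FDR of 0.05, where 59.1% of all genes did, and all 9 were lower in the hippocampus, beside 29.2% of all genes. Nr1d1 was lower by a log2 fold change of -0.75 (SE 0.076, FDR = 6.53e-07), with 229, 220, 273, 277 and 229 CPM in the neocortex and 133, 153, 154, 154 and 136 CPM in the hippocampus. Every neocortex library was above every hippocampus library. Similar sizes were seen for Per2 (-0.78), Cry1 (-0.71), Per3 (-0.71) and Hlf (-0.69), and smaller ones for Cry2 (-0.44), Dbp (-0.41), Clock (-0.26) and Arntl (-0.20, FDR = 0.0281). The call for Arntl was lost without control hippocampus library 1 (-0.16, FDR = 0.0795) and without control neocortex library 1 (-0.16, FDR = 0.0771) or 2 (-0.18, FDR = 0.0644), and with no filter on low counts (-0.18, FDR = 0.0556).

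Tef stood apart from the other 9 genes, with a hippocampal estimate above the neocortical one. It was between 294 and 346 CPM in the control neocortex and between 322 and 425 CPM in the control hippocampus, with overlap (log2 fold change 0.15, SE 0.070, FDR = 0.0781). With the library number as a block, which pairs the control libraries of the 2 regions, Tef passed as higher in the hippocampus (0.15, FDR = 0.0393), and the other 9 calls stayed, beside 61.4% of all genes. Tef also passed without control hippocampus library 3, which had the highest choroid plexus sum (0.20, FDR = 0.0219).

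In cTKO mice 6 of the 10 genes passed, where 41.3% of all genes did, and all 6 were lower in the hippocampus, beside 21.1% of all genes. These were Per3 (-0.97, FDR = 0.00421), Hlf (-0.92, FDR = 0.000928), Nr1d1 (-0.80, FDR = 0.000441), Dbp (-0.40, FDR = 0.0278), Cry2 (-0.26, FDR = 0.0189) and Clock (-0.26, FDR = 0.0209). Estimates for Arntl (-0.31, 95% interval -0.64 to 0.014), Per2 (-0.43, 95% interval -0.88 to 0.030) and Cry1 (-0.35, 95% interval -0.73 to 0.034) were below 0 but missed the threshold. With the library number as a block all 3 passed (FDR = 0.0425, 0.0278 and 0.0213), so that 9 of the 10 genes were called, beside 41.9% of all genes. The cTKO libraries of the 2 regions deviated together over all genes for numbers 1 to 3 (r from 0.319 to 0.396) and did not for numbers 4 and 5 (r = -0.056 and -0.071). Cry1 and Per2 passed without cTKO hippocampus library 3 (-0.57, FDR = 0.00160, and -0.69, FDR = 0.00190). The call for Dbp was lost without cTKO neocortex library 3 (-0.26, FDR = 0.0540), cTKO neocortex library 4 (-0.39, FDR = 0.0558) or cTKO hippocampus library 1 (-0.34, FDR = 0.0678), and that for Clock without cTKO neocortex library 1 (-0.23, FDR = 0.0518) or cTKO hippocampus library 2 (-0.22, FDR = 0.0536). Tef was again above 0 in estimate (0.13, 95% interval -0.10 to 0.36).

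**Figure D3:**
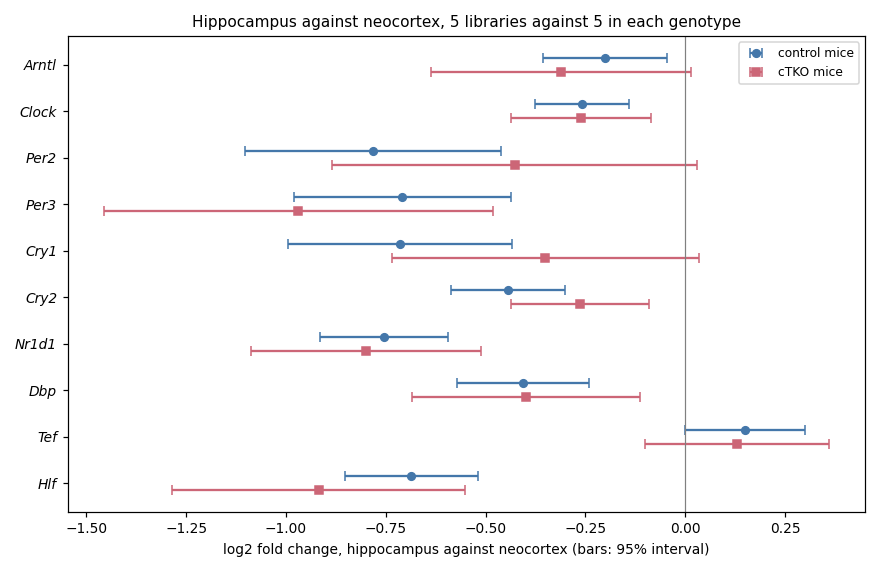
Log2 fold change of each gene, hippocampus against neocortex (x axis), in control mice (blue circles) and in cTKO mice (red squares), with 95% intervals from edgeR's quasi-likelihood fit of 5 against 5 libraries. All estimates except that of Tef lay below 0 in both genotypes.

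Of the 18 other clock genes, 12 were lower and 0 higher in the control hippocampus at an FDR of 0.05, where 29.2% of all genes were lower. In the cTKO hippocampus 11 were lower, beside 21.1% of all genes, and 1 was higher, Bhlhe41. Per1 (-0.93), Npas2 (-0.94), Ciart (-0.91) and Nr1d2 (-0.26) were all among the lower ones in controls. The same 4 genes were lower in cTKO mice, by log2 fold changes of -0.85, -1.30, -0.86 and -0.32. Bhlhe41 was not called in controls (-0.064, FDR = 0.433) and was higher in the hippocampus of cTKO mice (0.70, FDR = 0.00167).

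Because the clock genes are known to vary together over the day, their covariation was examined across the 10 libraries of a region, with the mean of each genotype removed from log2 CPM. Correlations were tested by exact permutation within genotypes (two-sided, 14400 orders) and adjusted over the 45 pairs of a region. In the neocortex 2 of the 45 pairs passed an adjusted p of 0.05. For pairs of other genes the share with such a correlation was not determined in either region, so that the counts are not shown to be particular to clock genes. Dbp and Nr1d1 varied together (Pearson's r = 0.94, exact permutation p = 0.000208, adjusted p = 0.00938; Spearman's rho = 0.96, p = 0.000139), as did Dbp and Per3 (r = 0.92, p = 0.00194, adjusted p = 0.0438; rho = 0.87, p = 0.00500). The third pair of these genes, Per3 and Nr1d1, had r = 0.88 (exact permutation p = 0.0135, adjusted p = 0.190). In all 3 genes cTKO neocortex library 3 was the highest and cTKO neocortex library 1 was the lowest of the cTKO group.

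Both calls were lost without cTKO neocortex library 3. Without it, r was 0.83 for Dbp and Nr1d1 (adjusted p = 0.266) and 0.78 for Dbp and Per3 (adjusted p = 0.270), and 0 of the 45 pairs passed. Across the control libraries alone r was 0.83 for Dbp and Nr1d1 and 0.69 for Dbp and Per3. Across the cTKO libraries alone it was 0.97 and 0.98. Without the 2 libraries farthest from the median of Nr1d1 or of Per3, r was 0.84 and 0.79, with exact permutation p = 0.0260 and 0.0503 before adjustment. Here 0 pairs passed, but the remaining libraries leave too few orders for a single pair to pass after adjustment over 45 pairs. This count therefore does not bear on the calls. The call for Dbp and Per3 was also lost when any one of 7 other libraries was left out, with r between 0.90 and 0.94. Oligodendrocyte markers in cTKO neocortex library 3 summed to 5840 CPM, against at most 3897 CPM in the other libraries of its group, and the part of this in the correlations was not tested.

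No pair with an activator passed the adjusted threshold in the neocortex. Clock had the lowest correlations of all pairs, with Per3 (r = -0.78, rho = -0.73, exact permutation p = 0.0255, adjusted p = 0.229), Nr1d1 (r = -0.78) and Dbp (r = -0.76). Without the 2 libraries farthest from the median of Clock, r was -0.36, -0.48 and -0.23. It was -0.26, -0.48 and -0.14 across the control libraries alone, and -0.97, -0.90 and -0.96 across the cTKO libraries alone. With the other repressors Clock had r = 0.33 (Per2), 0.16 (Cry1) and 0.36 (Cry2), and Arntl and Cry2 had r = 0.52. Arntl had r = -0.36 with Dbp (rho = -0.58), -0.42 with Nr1d1 (rho = -0.44), -0.22 with Per3 and -0.22 with Per2, with adjusted p = 0.864 for each by exact permutation. Arntl and Clock had r = 0.22 (rho = 0.22), and Arntl and Cry1 r = -0.024. Dbp was less closely tied to Tef (r = 0.35), Hlf (r = 0.30) and Per2 (r = 0.27), and Tef and Hlf had r = -0.084.

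**Figure D4:**
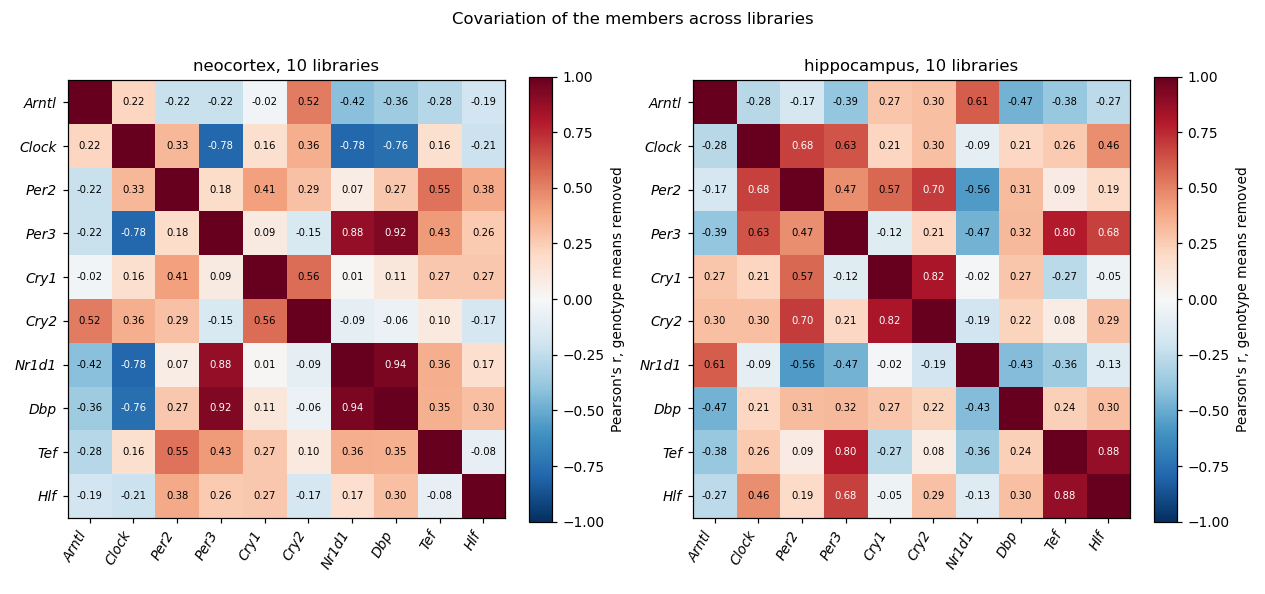
Pearson's r between each pair of the 10 genes (colour and number, from -1 to 1) across the 10 neocortex libraries (left) and the 10 hippocampus libraries (right), after removing genotype means. Per3, Nr1d1 and Dbp had r of 0.88 to 0.94 with each other in the neocortex, and of -0.47 to 0.32 in the hippocampus.

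In the hippocampus 0 of the 45 pairs passed by Pearson's r, and 4 had an unadjusted exact permutation p under 0.05. The highest r was that of Tef and Hlf (r = 0.88, exact permutation p = 0.00146, adjusted p = 0.0656), which passed by Spearman's rho (rho = 0.92, adjusted p = 0.0469) and had r = 0.84 without the 2 farthest libraries. Cry1 and Cry2 (r = 0.82) and Per3 and Tef (r = 0.80) followed. In cTKO hippocampus library 1 Tef and Hlf had their lowest levels of all 20 libraries, at 259 and 101 CPM, and Per3 and Dbp did too, at 18.2 and 52.6 CPM. The pairs of Dbp that led in the neocortex did not do so here, with r = -0.43 for Dbp and Nr1d1 (rho = -0.22, adjusted p = 0.823) and r = 0.32 for Dbp and Per3 (rho = 0.030, adjusted p = 0.848). Whether these correlations differ between the regions was not tested.

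The lowest r in the hippocampus was that of Per2 and Nr1d1 (r = -0.56, rho = -0.62, exact permutation p = 0.144, adjusted p = 0.721). Arntl had r = 0.61 with Nr1d1 (rho = 0.25), -0.47 with Dbp (rho = -0.71), -0.39 with Per3, -0.28 with Clock, 0.27 with Cry1 and -0.17 with Per2. None of these passed, and the sign for Nr1d1 and for Per2 turned without the 2 farthest libraries (-0.28 and 0.23). Dbp had r = 0.31 with Per2, 0.24 with Tef and 0.30 with Hlf. Across the 5 control libraries alone these values were -0.045, -0.77 and -0.62, and across the 5 cTKO libraries alone 0.55, 0.82 and 0.75. Per3 and Dbp likewise had r = -0.79 in controls and 0.99 in cTKO mice.

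**Figure D5:**
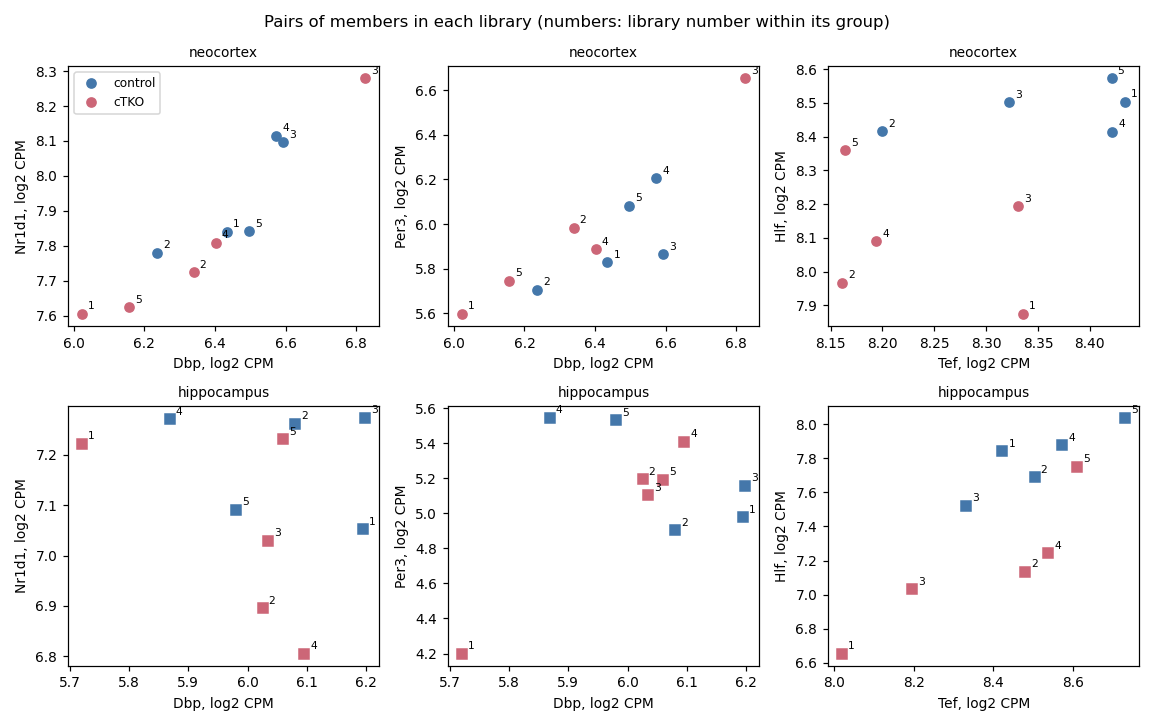
Log2 CPM of Nr1d1 and Per3 against Dbp and of Hlf against Tef, one point for each library, in the neocortex (top) and the hippocampus (bottom), with controls in blue and cTKO in red and the library number beside each point. In the neocortex cTKO library 3 lies at the upper right for both genes plotted against Dbp, and in the hippocampus Hlf rises with Tef within each genotype.

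Libraries with the same genotype and number in the 2 regions were compared as 10 pairs, with genotype means removed. The authors describe taking both regions from 5 cTKO mice and 5 littermate controls. The labels do not say that a pair of equal number is 1 mouse. The gene Xist was above 100 CPM in both regions or in neither for 10 of 10 numbers. Over all genes, equal numbers deviated together in controls (r from 0.130 to 0.335) and for cTKO numbers 1 to 3 (r from 0.319 to 0.396). The pairs of cTKO numbers 4 and 5 did not, and cTKO neocortex library 5 correlated best with cTKO hippocampus library 4. The share of all genes correlated between regions was not determined, so that the values below are not shown to be particular to clock genes. None of the 10 genes passed an adjusted p of 0.05 for its correlation between regions, and 3 had an unadjusted p under 0.05. These were Cry1 (r = 0.71, rho = 0.76, exact permutation p = 0.0132, adjusted p = 0.132), Per2 (r = 0.67, rho = 0.73, p = 0.0288, adjusted p = 0.140) and Hlf (r = 0.78, rho = 0.44, p = 0.0421, adjusted p = 0.140). Without the 2 farthest pairs r was 0.85 for Cry1 and 0.55 for Per2, but 0.10 for Hlf, so that the relation for Hlf rested on those pairs. For Dbp r was 0.31 (rho = 0.35) and for Nr1d1 -0.093 (rho = -0.33). With the 8 pairs left without cTKO numbers 4 and 5, r was 0.69 for Cry1, 0.73 for Per2 and 0.47 for Hlf, and again 0 genes passed. With cTKO number 3 left out, Per2 (r = 0.87) and Per3 (r = 0.83) passed, each with an adjusted p of 0.0417.

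The genes whose pattern was most like that of Dbp were found over all 20 libraries and 13468 genes, with the mean of each of the 4 groups removed and as a description only. The highest r were those of Lrp10 (0.84), Frat1 (0.79), Scly (0.78), Itpka (0.77) and Tkfc (0.75), and the lowest were those of Wars2 (-0.87), Zfp157 (-0.82), Ptpn12 (-0.78), Slc15a2 (-0.77) and Zfp9 (-0.77). Of the clock genes, Per3 ranked 89 from the top (r = 0.63) and Nr1d1 ranked 320 (r = 0.53). For Arntl the highest were Emc8 (0.81), Klhl14 (0.76), Abat (0.73), Fbxo8 (0.72) and Wdr13 (0.72), and the lowest Calcrl (-0.78), Ctsc (-0.74), Sepn1 (-0.74), Kcnk6 (-0.74) and Serinc3 (-0.74). Arntl and Dbp had r = -0.38 with each other. The libraries share depth, cell makeup and tissue quality across genes, so these values carry no p.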

How the data were processed

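RNA-seq of poly-A RNA was used from 20 libraries, 5 for each genotype and region. The authors mapped single-end reads to mm10 with STAR 2.5.4a and counted them on genes with HTSeq, and the deposited values are raw counts per gene symbol. All columns were mapped to a library by its label, and 0 were left out. No pair of libraries of a group agreed within sampling noise.

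The 10 genes and all lists were chosen with earlier results of these data known. Each fit kept genes above 1 CPM in 5 or more libraries, took TMM library sizes, and used edgeR 4.0.16 in R 4.3.3 with its quasi-likelihood test and Benjamini-Hochberg adjustment, threshold 0.05. The edgeR steps were tested on simulated data. CPM in the text were scaled over all 20 libraries, with a prior count of 2 for log2 values. Single genes were compared by exact permutation, two-sided and unadjusted. A level of 3 counts was 0.118 to 0.247 CPM, which covers counting error only.

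Control libraries with the same number in both regions deviated together for 5 of 5 numbers (r from 0.130 to 0.335 over all genes), so that the block by number is given there. The libraries of a region are from different mice, and p values of tests within a region measure the spread between them. Fits that joined both regions took the libraries as independent where no block is named, although the authors describe taking both regions from the same mice. By rule, the text names all 10 genes and a fixed set of pairs, the other clock genes that were called, or else the 2 with the smallest p in a region, Per1, Nr1d2, Npas2 and Ciart, and the 5 genes most and least like Dbp and Arntl. Markers of 10 cell types or tissues were summed. In the genotype comparisons 0 of these markers were called except 1, lower, on the neocortex list in the hippocampus. Alternatives were DESeq2 1.42.0, other tests, filters and scalings, the block, Xist or Dbp as covariate, and leaving out each library.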

Additional observations from a re-analysis of the deposited data

Results flagged for a closer look

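In 6 of the 40 groups of 5 libraries, 1 library lay farther from the others than Dixon's 95% limit for the gap over the range, and chance alone flags about 1 in 20 groups. cTKO neocortex library 3 was high for Per3, at 100.5 CPM with the next library at 63.1, and for Nr1d1, at 311 CPM with the next at 224. These genes were correlated across libraries, so these are not independent. Arntl was low in cTKO hippocampus library 4, at 18.7 CPM with the next at 28.2, the library that holds embryonic markers. Arntl was also low in control hippocampus library 1, at 32.2 CPM with the next at 36.0. Cry1 was high in cTKO hippocampus library 3, at 22.7 CPM with the next at 13.3. Dbp was low in cTKO hippocampus library 1, at 52.6 CPM, the lowest of its group.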

How the results depend on the processing

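Over all alternatives, 226 of 258 counts of called genes or pairs stayed within 1.5 times, and of the values of single genes and pairs 1462 kept their direction and side of the threshold, 25 passed it, 24 lost it and 62 changed sign. The count of the 10 genes called by genotype went from 0 to 1 by the likelihood ratio, exact and DESeq2 tests in both regions and in one fit of all 20 libraries in the hippocampus, always through Hlf, and was 0 to 1 with each library left out. Permutation of single genes gave 2 neocortical and 3 hippocampal genes with p under 0.05, and 1 to 3 and 2 to 3 with each library left out. The 18 other clock genes had 1 interaction call by the likelihood ratio test, DESeq2 and the replicate block, which was Bhlhe41, against 0, and 0 to 1 with libraries left out, as for their genotype count in the hippocampus. Pairs called in the neocortex were 1 by Spearman's rho, 0 without the 2 farthest libraries and 0 to 3 with each library left out, and in the hippocampus 1 by rho. Without the 2 farthest libraries too few orders remain for a single pair to pass, so that this count was all but fixed in advance. Calls between regions were 0 to 2 with each number left out. The controls were littermates, but the labels do not say what libraries of different genotype and equal number share. Over all genes, 3 of 5 numbers in the neocortex and 1 of 5 in the hippocampus had r over 0.1. Of 5 control libraries, 4 in the neocortex and 1 in the hippocampus correlated best with the cTKO library of their own number. Over the 500 most variable genes these were 2 and 1. The cTKO libraries of the 2 regions deviated together for 3 of 5 numbers, each of which correlated best with its own number, and not for the others. With the replicate block 0 of the 10 genes were called by genotype in either region (Hlf -0.38, FDR = 0.0823, and -0.63, FDR = 0.0651), 10 between regions in controls and 9 in cTKO mice, where Arntl, Per2 and Cry1 passed (FDR = 0.0425, 0.0278 and 0.0213). Signs turned by rho for Arntl and Cry1 (0.055) and Tef and Hlf (0.018) in the neocortex, and with no centring for Tef and Hlf in the neocortex (0.45) and Arntl and Cry1 in the hippocampus (-0.26). Without the 2 farthest libraries they turned for Dbp and Hlf in the neocortex (-0.29), and in the hippocampus for Arntl and Nr1d1 (-0.28), Arntl and Per2 (0.23), Per3 and Dbp (-0.76), Dbp and Tef (-0.53) and Dbp and Hlf (-0.30). With 8 pairs, without cTKO numbers 4 and 5 and chosen after seeing the data, r between regions turned for Arntl (-0.51) and Nr1d1 (0.039). With each library left out, r ranged in the neocortex from -0.33 to 0.22 for Arntl and Cry1, -0.69 to 0.044 for Arntl and Per2, -0.33 to 0.055 for Arntl and Per3, -0.052 to 0.82 for Dbp and Hlf and -0.28 to 0.24 for Tef and Hlf. In the hippocampus it ranged from -0.023 to 0.40 for Arntl and Cry1, -0.30 to 0.49 for Dbp and Hlf, -0.46 to 0.42 for Dbp and Tef, -0.049 to 0.41 for Per2 and Dbp and -0.67 to 0.61 for Per3 and Dbp. Between regions it was -0.46 to 0.44 for Arntl, -0.13 to 0.48 for Dbp and -0.17 to 0.092 for Nr1d1. The log2 fold change by genotype ranged in the neocortex from -0.061 to 0.0091 for Clock, -0.0043 to 0.16 for Per2, -0.13 to 0.17 for Per3 and -0.054 to 0.091 for Bhlhe41, and in the hippocampus from -0.067 to 0.014 for Clock and -0.029 to 0.075 for Cry2. Interactions were -0.16 to 0.0020 for Arntl, -0.032 to 0.050 for Clock, -0.072 to 0.16 for Dbp, -0.100 to 0.10 for Nr1d1 and -0.072 to 0.054 for Tef. The cause of these changes was not tested. The lowest count of a gene in a library was 183, and counting error and the spread between mice were not separated in the intervals.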
